A study of Mus musculus with 32 samples.

Results

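The myotubularin related phosphatases are the relatives of myotubularin (MTM1), the lipid phosphatase whose gene was deleted in the mice studied here. The 10 genes described (*Mtmr1*, *Mtmr2*, *Mtmr3*, *Mtmr4*, *Mtmr6*, *Mtmr7*, *Mtmr9*, *Mtmr10*, *Mtmr12* and *Mtmr14*) were chosen by name as paralogues of *Mtm1* from the 54838 genes of the count table. The rule used no measured value, but the choice was made with earlier results of these data known. All 10 passed the filter on low counts in every comparison. The question asked of them was whether any rises when *Mtm1* is lost.

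RNA of the tibialis anterior muscle (labelled as skeletal muscle) was sequenced from C57BL6/J mice in 8 groups of n=4, *Mtm1* knockout (KO) and wild-type (WT) littermates at postnatal days 1, 14, 21 and 35 (P1, P14, P21 and P35). The KO allele deletes part of the *Mtm1* gene, at the fourth exon according to the methods, in every cell and from conception. It was made in the 129S2PAS background and rederived onto C57BL6/J, to which carrier females were later bred back at intervals. The labels name no other allele or treatment, and all 32 libraries read as male (at most 0.365 CPM of *Xist* and at least 107 CPM over 4 Y-linked genes).

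Myotubularins remove the phosphate at position 3 of the inositol ring from phosphatidylinositol 3-phosphate (PI3P), a lipid that marks endosomes and autophagosomes, and from its bisphosphorylated form. Part of the family has lost the catalytic residues; these members bind the active ones and steer their location, stability or activity. In people, loss of MTM1 causes X-linked myotubular myopathy, loss of MTMR2 or of its inactive partner SBF2 causes demyelinating neuropathy, and variants of MTMR14 have been reported in centronuclear myopathy.

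The division into active and inactive members can be read in the coding sequence of the active site. The stretch shown for each gene spans 21 bases (7 codons) aligned to codons 375 to 381 of *Mtm1*, from GENCODE M21 transcripts of GRCm38, with capitals for the first codon, which encodes the catalytic cysteine in *Mtm1*, and for the last, which encodes an arginine there.
Mtm1: TGCagtgacggatgggacAGG
Mtmr1: TGCagtgatgggtgggatCGA
Mtmr2: TGCagtgatggatgggatCGC
Mtmr3: TGCtccgatggctgggatCGG
Mtmr4: TGCtctgacggctgggacCGT
Mtmr6: TGTtccgatgggtgggacAGG
Mtmr7: TGTtctgacggctgggacAGA
Mtmr14: TGTatctcaggctgggacCGG
Mtmr9: GGGacagaaggaactgatTCC
Mtmr10: GAGgaggaaggcagagacTTG
Mtmr12: GAAgagaatgcttctgatCTC

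The 7 members from *Mtmr1* to *Mtmr14* in this order keep the cysteine and the arginine, with different codons for each. *Mtmr9* has a glycine and a serine codon at these places, and *Mtmr10* and *Mtmr12* have a glutamate and a leucine codon. Over the whole translated coding sequence, *Mtmr2* (63.1% of aligned residues identical) and *Mtmr1* (58.2%) were closest to *Mtm1*, *Mtmr3*, *Mtmr4*, *Mtmr6*, *Mtmr7* and *Mtmr9* lay between 32.8% and 37.2%, *Mtmr10* and *Mtmr12* were at 27.9% and 25.7%, and *Mtmr14* was at 19.8%. *Mtmr1* is also the neighbour of *Mtm1* on the X chromosome. In GRCm38, *Mtm1* runs from X:71210767-71315691 and *Mtmr1* from X:71364760-71419196 on the same strand, with 49068 bases between them, and the other 9 members lie on autosomes.

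*Mtm1* itself was low in the KO libraries at every age. On the CPM scale (counts relative to library size, after TMM scaling of all libraries together), the 4 WT libraries at P35 held 21.5, 20.7, 24.9 and 21.4 and the 4 KO libraries 3.71, 3.95, 3.32 and 3.78. The difference was -2.34 on the log2 scale at P14, -2.71 at P21 and -2.56 at P35, with adjusted P-values of 5.27e-06, 8.13e-06 and 1.83e-06 (edgeR quasi-likelihood test, Benjamini-Hochberg over all genes tested, as for every adjusted P-value here unless another is named). At P1, WT *Mtm1* was only 5.26 to 6.02 CPM and the KO libraries held 2.32, 2.40, 2.45 and 3.91 CPM. The groups did not overlap at P1, but the difference of -0.98 (s.e. 0.172) had an adjusted P-value of 0.0668, and of 0.00340 without KO replicate 4, the library at 3.91 CPM. DESeq2 gave the difference an adjusted P-value of 2.04e-05, and an edgeR fit of all 32 libraries 1.41e-04. Muscle fibre markers (*Acta1*, *Ckm*, *Mylpf*, *Tnnt3*, *Myh4* and *Ryr1*) were present in every library, summing to 18158 to 34427 CPM at P1 and to 61050 to 171941 CPM later. Library totals were 49321035 to 85631408 counts.

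In WT muscle the members differed in level by nearly 2 orders of magnitude. To compare genes, counts were divided by the length of each gene's merged exons and scaled to the same sum in every library (TPM). At P35, *Mtmr6*, an active phosphatase that pairs with *Mtmr9*, was highest at 38.3±4.36 TPM (mean±s.d., n=4), followed by *Mtmr3*, a FYVE domain phosphatase, at 20.2±1.62. *Mtmr1* (14.0±1.16) and *Mtmr14* (12.3±1.09) overlapped, the lowest *Mtmr1* library at 12.6 TPM and the highest *Mtmr14* library at 13.6. Below them came *Mtmr2* at 9.78±0.394, whose range lay clear of both neighbours, and *Mtmr10* at 7.41±0.743 TPM. *Mtmr9* (5.46±0.230) and *Mtmr4* (5.16±0.242), the other FYVE domain member, overlapped. *Mtm1* itself stood at 2.48±0.206 TPM on this scale and its stabilizing inactive partner *Mtmr12* at 2.17±0.180, but with the length of the longest transcript in place of merged exons *Mtm1* was at 7.25 TPM and *Mtmr12* at 1.93. *Mtmr7*, a close relative of *Mtmr6*, was lowest at 0.447±0.133 TPM. *Mtmr7* also shares 40 exonic bases of its 4454 with *Vps37a* on the opposite strand, a gene of up to 89.6 CPM, and whether counting used the strand is not given in the sources used here. In the other members, genes annotated on the opposite strand reached at most 0.451 CPM.

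At P1 the order was different. *Mtmr3* led with 49.3±1.11 TPM, ahead of *Mtmr6* at 40.6±2.13 and *Mtmr2* at 28.6±1.38. Among *Mtm1* and the 7 active members together, *Mtmr6* made up 23.8% (s.d. 0.672) of the summed TPM at P1 and 37.2% (s.d. 1.70) at P35 in WT, *Mtmr3* 28.9% and 19.6%, and *Mtmr2* 16.7% and 9.56%. *Mtm1* made up 1.04% (s.d. 0.0601) of the sum in WT at P1, 3.01% (s.d. 0.0858) at P14, 2.62% (s.d. 0.0965) at P21 and 2.43% (s.d. 0.282) at P35, and between 0.427% and 0.650% in KO. These shares depend on the length given to *Mtm1*: its merged exons span 13935 bases and its longest transcript 4111, and with longest transcripts the WT shares were 2.79%, 7.91%, 6.90% and 6.48%. On either length *Mtm1* was a small part of the summed RNA of active family members, as the stacked plot of summed levels shows.

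**Figure D1:**
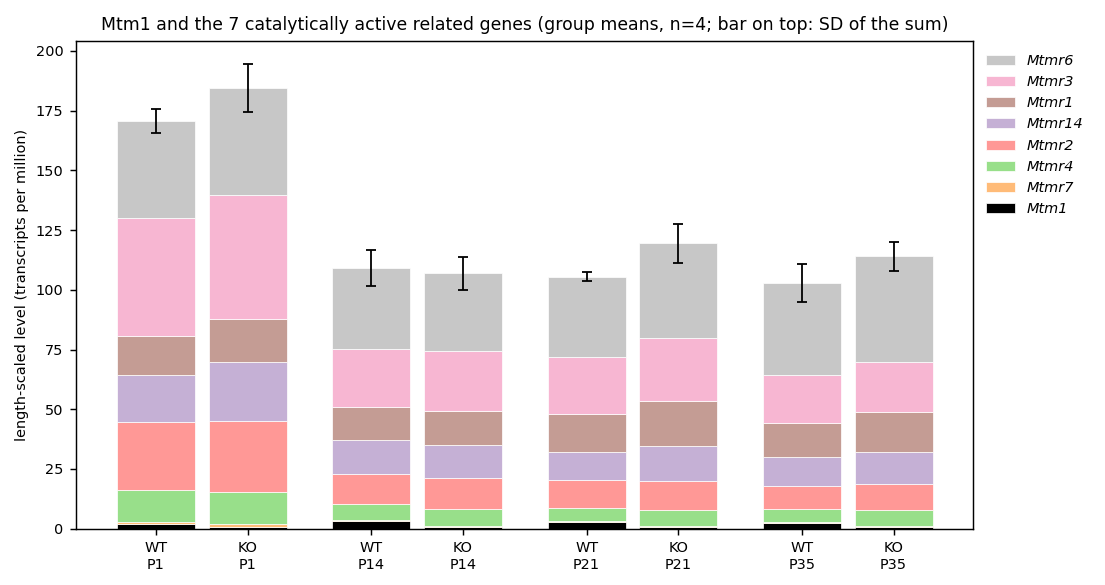
Stacked bars give the mean length-scaled level (TPM, n=4) of *Mtm1* and the 7 catalytically active related genes in muscle of both genotypes by age, and the error bar is the s.d. of the sum. *Mtm1* (black) is 1.04% to 3.01% of the sum in WT, and *Mtmr6* and *Mtmr3* are the largest parts in every group.

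The WT time course, tested on counts, showed which members change as the muscle matures. From P1 to P14, 4 members rose, beside 37.3% of all genes tested, and 2 fell, beside 42.1%. *Mtmr1* rose 1.70-fold (log2 0.77, s.e. 0.0682, adjusted P=4.97e-06), from 21.1, 22.7, 22.4 and 21.2 CPM to 34.7, 35.3, 38.1 and 41.4. *Mtmr6* rose 1.68-fold, *Mtmr14* 1.46-fold and *Mtmr10* 1.31-fold, and in each of them the highest P1 library lay below the lowest P14 library. *Mtmr2* (0.873-fold) and *Mtmr12* (0.815-fold) fell. For comparison, *Mtm1* rose 3.70-fold over the same step. All 4 rises depend on the scaling. They were also called with RLE size factors and by DESeq2, but not under library totals. Scaled by library totals, the median gene moved by -0.85 (log2) between these ages. *Mtmr1*, *Mtmr6*, *Mtmr14* and *Mtmr10* then stood at -0.01, -0.03, -0.24 and -0.38, all still above that median, which moves with them. On that scale 0 members were called higher and 8 lower, *Mtmr14* and *Mtmr10* among them, beside 70.4% of all genes.

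From P14 to P21, 3 members rose, beside 13.0% of all genes, and 1 fell, beside 12.6%. *Mtmr10* rose 1.51-fold (log2 0.59, s.e. 0.100, adjusted P=0.00382), *Mtmr1* 1.34-fold (log2 0.42) and *Mtmr3* by 0.26 on the log2 scale, and *Mtmr12* fell to 0.781-fold. The calls of *Mtmr3* (adjusted P=0.0195) and *Mtmr12* (adjusted P=0.0196) were lost when single libraries were left out, to 0.0558 and 0.0674 without WT P14 replicate 1, 0.0559 for *Mtmr3* without WT P14 replicate 3, and 0.0542 and 0.0547 for *Mtmr12* without WT P14 replicate 2 or WT P21 replicate 4. Both were also lost in a fit blocked on the replicate number (0.0703 and 0.0617), and *Mtmr3* under library totals (log2 0.09, adjusted P=0.413). From P21 to P35, 2 members rose, beside 9.99% of all genes, and 1 fell, beside 7.67%. *Mtmr6* rose 1.35-fold (log2 0.43, s.e. 0.0741, adjusted P=0.00736), *Mtmr14* rose 1.27-fold (adjusted P=0.0214, 0.0502 without WT P35 replicate 1) and *Mtmr9* fell to 0.819-fold (adjusted P=0.0251). Under library totals *Mtmr14* was not called (log2 0.28, adjusted P=0.0649). The call of *Mtmr9* was lost on leaving out any of 6 of the 8 libraries (WT P21 replicates 1, 3 and 4 and WT P35 replicates 1, 2 and 4), with adjusted P-values of 0.0541 to 0.0698. *Mtmr4* and *Mtmr7* were called at none of the 3 steps. *Mtmr4* varied little, with WT means of 18.3, 18.6, 18.9 and 20.6 CPM from P1 to P35. The plot of CPM by library gives these courses for every member.

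**Figure D2:**
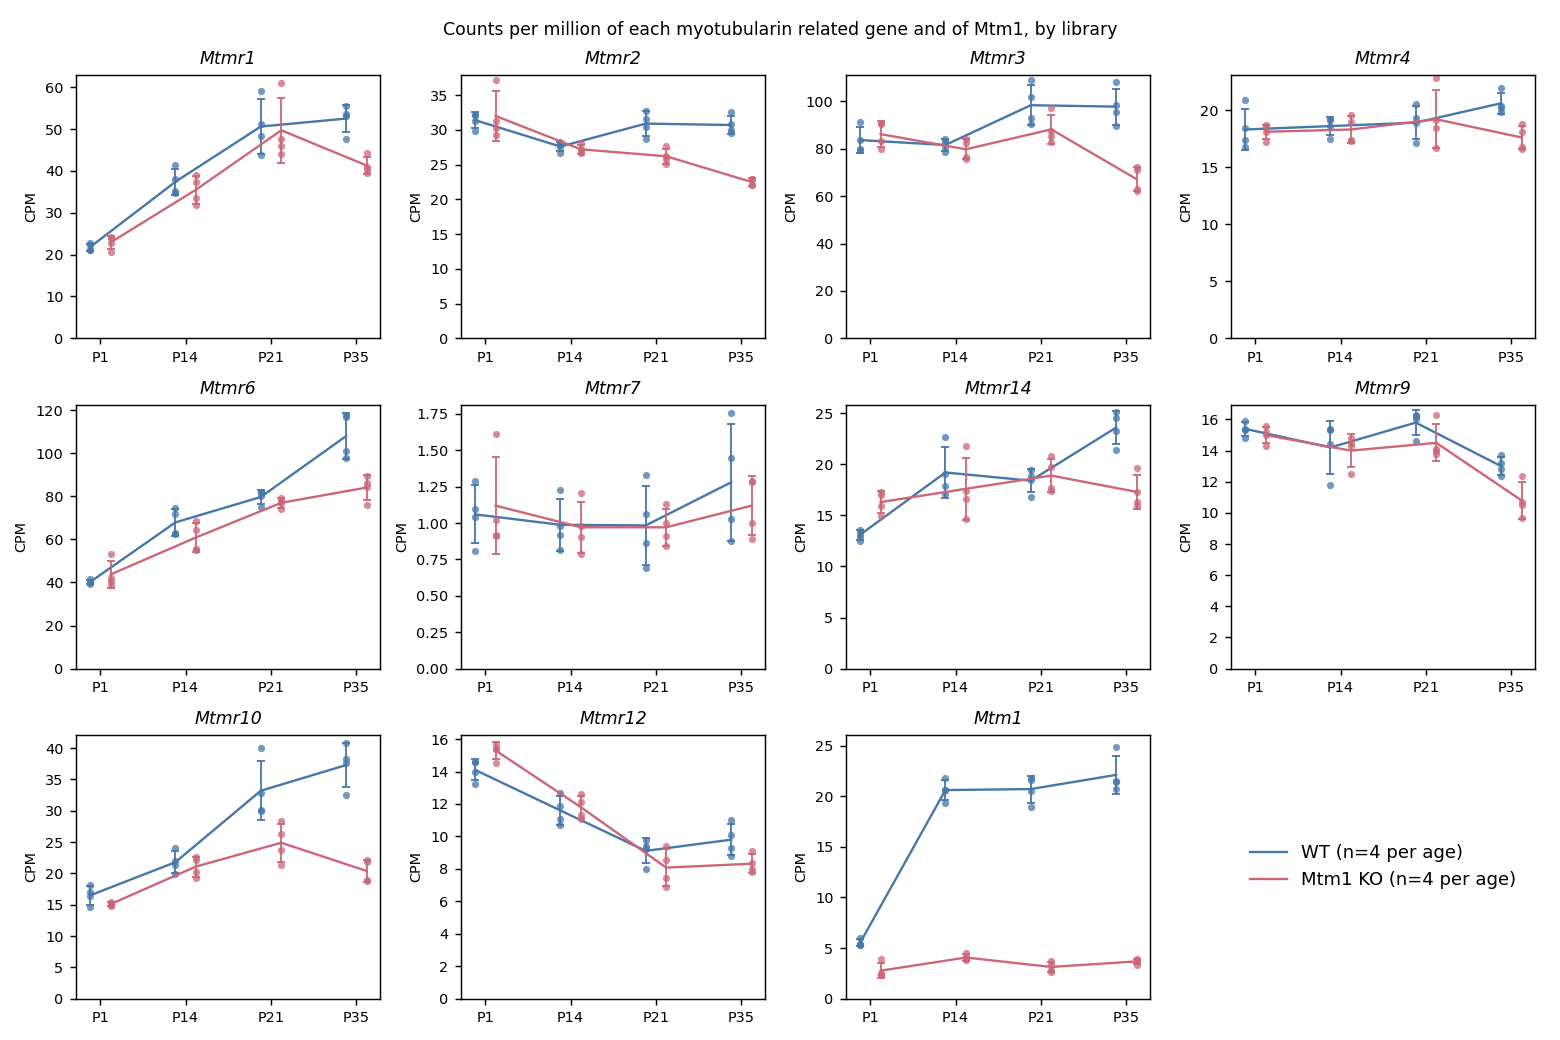
Each point is 1 library, in CPM (linear axis from 0) against age, with lines through the means and bars of s.d. for WT (blue) and KO (red), n=4 per group. On this TMM scale *Mtmr1*, *Mtmr6* and *Mtmr10* climb with age in WT, and *Mtmr12* is lower at P35 than at P1. At P35 the KO points of 7 members lie wholly below the WT points. In TPM the climbing genes have no higher WT mean at P35 than at P1 (*Mtmr1* 14.0 and 16.7, *Mtmr6* 38.3 and 40.6, *Mtmr10* 7.41 and 9.40).

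At P1, loss of *Mtm1* was accompanied by no called change of a member. With edgeR, 0 of 10 members were called, beside 0.243% of the 18100 genes tested, and 1 had an unadjusted P-value under 0.05, beside 1978 genes. That member was *Mtmr14*, an active phosphatase known for its action in muscle, with 12.9, 13.2, 12.5 and 13.6 CPM in WT and 17.3, 14.9, 17.0 and 15.9 in KO. All 4 KO libraries were above all 4 WT libraries. The difference was 1.26-fold (log2 0.33, s.e. 0.0673) with an adjusted P-value of 0.100, and between 0.0763 and 0.325 with any 1 library left out. DESeq2 called it (adjusted P=0.00322), beside 1.38% of genes higher in KO by that test. The other 9 members lay between -0.12 and 0.13 on the log2 scale. In KO replicate 4, the library with the most *Mtm1* of its group, *Mtmr6* (53.0 CPM against 38.6 to 42.3), *Mtmr2* (37.2 against 29.2 to 31.3) and *Mtmr7* (1.61 against 0.913 to 1.02) were also highest; without it, 0 members were called. This library also held the lowest summed markers of its group for muscle fibres (18158 CPM against 24787 to 34243), fibroblasts (9920 against 12747 to 16319), endothelium (283 against 401 to 422) and satellite cells (69.3 against 109 to 112), whose part in its values was not tested. Keratinocyte markers (*Krt5*, *Krt14*, *Krt10*, *Krt1*, *Trp63* and *Dsp*) summed to 1560 to 6014 CPM in the P1 libraries against 6.71 to 35.7 CPM later, with overlapping ranges in WT and KO at P1, and their part in the P1 values was not tested.

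At P14, when *Mtm1* stood at 20.6±1.02 CPM in WT, the members of KO and WT muscle were close together. None was called without pairing, beside 0.0954% of the 15728 genes tested, and 0 had an unadjusted P-value under 0.05, beside 1072 genes. DESeq2 called 0 as well. The differences ran from -0.16 for *Mtmr6* to 0.02 for *Mtmr12*. At this age libraries with the same replicate number deviated together, and in a fit blocked on that number 1 member was called, beside 2.74% of genes lower in KO. This was *Mtmr6*, with 62.5, 62.8, 71.6 and 74.6 CPM in WT replicates 1 to 4 and 55.5, 55.3, 64.6 and 68.4 in the KO replicates of the same numbers. KO was lower in 4 of 4 pairs, by 0.16 on the log2 scale (s.e. 0.0381, adjusted P=0.0396 with the block, 0.827 without it), and by 0.07 under library totals. Summed muscle fibre markers were also lower in KO in 4 of 4 pairs (122752 to 163142 CPM in WT, 93987 to 143431 in KO) and summed Schwann cell markers higher in 4 of 4 (531 to 824 and 561 to 1201 CPM), and their part in the difference of *Mtmr6* was not tested. On the TMM scale, the 95% intervals at P14 bound how far a member could have risen. Apart from *Mtmr7*, whose low counts gave an upper bound of 1.32-fold, the highest upper bound was 1.15-fold, for *Mtmr9*. Under library totals the median gene moved by 0.09, and 8 members had positive estimates with 0 called.

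At P21, 2 of 10 members were called, both lower in KO, beside 9.57% of all genes called lower and 21.0% called in either direction. *Mtmr10*, an inactive family member, held 40.0, 32.8, 29.9 and 30.1 CPM in WT and 28.4, 21.3, 26.3 and 23.8 in KO. The groups did not overlap, and KO was 0.757-fold of WT (log2 -0.40, s.e. 0.111, adjusted P=0.0312). *Mtmr2*, the closest relative of *Mtm1* by sequence, held 32.7, 30.4, 31.6 and 28.7 CPM in WT and 27.7, 26.3, 25.1 and 25.8 in KO. It was 0.856-fold of WT (log2 -0.22, s.e. 0.0640, adjusted P=0.0352), again without overlap. Both calls were near the threshold. Without WT replicate 1 or 2 or KO replicate 2 or 4, neither was called (adjusted P from 0.0583 to 0.0816 for *Mtmr10* and from 0.0598 to 0.0898 for *Mtmr2*), and *Mtmr2* was also lost without WT replicate 3 (0.0632) or KO replicate 3 (0.0813). Under library totals, where the median gene moved by 0.20, both lost their calls (-0.21 and -0.04), and *Mtmr6* was called higher in KO (0.15). The other 8 members lay between -0.16 and 0.05.

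At P35, 6 of 10 members were called and all 6 were lower in KO, beside 20.1% of the 15595 genes called lower and 41.4% called in either direction. In 7 members every KO library lay below every WT library, beside 20.4% of all genes. DESeq2 called 8 members, all lower, beside 22.4% of genes lower by that test, and the edgeR fit of all 32 libraries 9, beside 20.8%. In the pairwise fit, the members' median difference was -0.33 on the log2 scale and that of all genes 0.04. No member was called higher at P35 or at any other age by the edgeR test with TMM scaling, as the plot of KO effects shows.

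**Figure D3:**
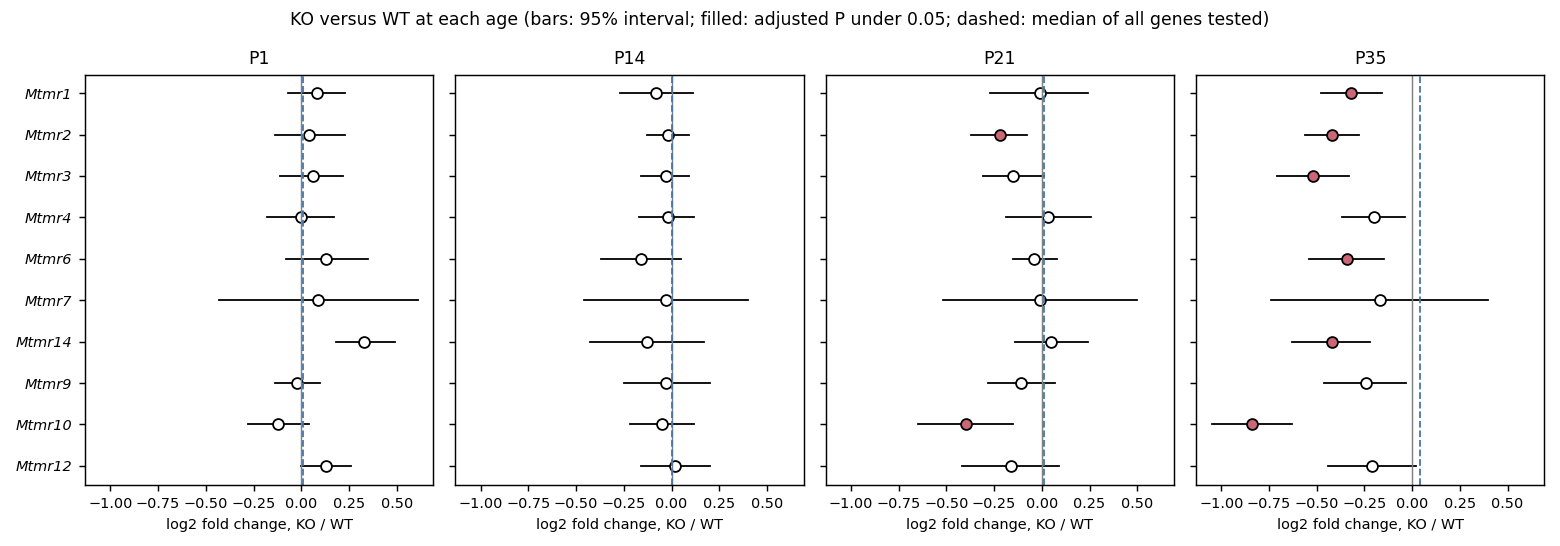
Points are the log2 fold changes of KO over WT for the 10 members, 1 panel per age, with 95% intervals as bars. Filled points passed an adjusted P-value of 0.05 and the dashed line is the median of all genes tested; at P35 all 10 points lie left of that line, from -0.84 for *Mtmr10* to -0.17 for *Mtmr7*.

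*Mtmr10* showed the largest difference of the members at P35. Its 4 WT libraries held 38.2, 32.5, 40.8 and 37.7 CPM and its 4 KO libraries 22.2, 18.9, 18.8 and 21.9. KO was 0.557-fold of WT (log2 -0.84, s.e. 0.0935, 95% interval -1.05 to -0.63, adjusted P=2.20e-04), and 5.28% of all genes tested had a lower fold change. It was the only member past the stricter limits of an adjusted P-value under 0.01 and a change beyond 1.5-fold, which 7.52% of genes passed in the lower direction. On the TMM scale *Mtmr10* had risen in WT from 16.5±1.48 CPM at P1 to 37.3±3.48 at P35. KO means on that scale were 15.1, 21.1, 24.9 and 20.4 CPM at the 4 ages. In TPM the WT level did not rise, with 9.40±1.01 at P1 and 7.41±0.743 at P35.

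Among the active members, the FYVE domain phosphatase *Mtmr3* held 98.5, 89.5, 95.5 and 108 CPM in WT at P35 and 71.0, 72.3, 62.3 and 63.2 in KO. It was 0.699-fold of WT (log2 -0.52, s.e. 0.0850, adjusted P=0.00137). *Mtmr4*, which shares that domain, was 0.868-fold without overlap of the groups (19.8 to 21.9 CPM in WT, 16.6 to 18.8 in KO) and missed the threshold (log2 -0.20, s.e. 0.0745, adjusted P=0.0519). It passed with RLE size factors (adjusted P=0.0352), by DESeq2 (0.0206) and in the fit of all 32 libraries (0.0215). It did not pass with no filter (0.134), with at least 10 counts in every library (0.0746) or with the replicate block (0.123). With 1 library left out it passed only without KO replicate 1 or 2 (0.0384 and 0.0441), and was otherwise at 0.0663 to 0.135. Under library totals it stood at 0.20, in the other direction (adjusted P=0.0506).

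Of the members closest to *Mtm1*, *Mtmr2* held 30.0, 30.8, 29.6 and 32.6 CPM in WT and 23.0, 23.0, 22.1 and 22.1 in KO, which was 0.746-fold (log2 -0.42, s.e. 0.0626, adjusted P=8.05e-04). *Mtmr1* held 55.5, 47.7, 53.2 and 53.5 CPM in WT and 41.0, 44.2, 39.5 and 40.5 in KO, which was 0.801-fold (log2 -0.32, s.e. 0.0727, adjusted P=0.00680). Neither group pair overlapped. The upper ends of the 95% intervals, 0.822-fold for *Mtmr2* and 0.896-fold for *Mtmr1*, lay under WT.

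*Mtmr14* held 25.1, 21.4, 24.5 and 23.3 CPM in WT and 19.6, 15.9, 16.3 and 17.3 in KO, which was 0.746-fold (log2 -0.42, s.e. 0.0906, adjusted P=0.00522). *Mtmr6* held 117, 101, 97.7 and 118 CPM in WT and 84.3, 76.1, 89.6 and 86.2 in KO, which was 0.788-fold (log2 -0.34, s.e. 0.0877, adjusted P=0.0120). In both genes all KO libraries were below all WT libraries. On the TMM scale both had risen between P21 and P35 in WT, the rise of *Mtmr14* not being called under library totals.

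The inactive partners *Mtmr9* (0.845-fold, adjusted P=0.0692) and *Mtmr12* (0.864-fold, adjusted P=0.121) were not called by the pairwise edgeR test, and their groups overlapped or touched: 12.4 to 13.7 CPM against 9.64 to 12.4 for *Mtmr9* and for *Mtmr12* a lowest WT library of 8.78 CPM against a highest KO library of 9.12. DESeq2 called *Mtmr9* (adjusted P=0.0409) and not *Mtmr12* (0.0915), and the fit of all 32 libraries called both (0.00932 and 0.0314). *Mtmr7*, near 1 CPM in both groups, was too low for a statement (0.889-fold, 95% interval 0.599 to 1.32). Apart from *Mtmr7*, the highest upper bound among the members at P35 was 1.01-fold, for *Mtmr12*, on the TMM scale.

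These directions are relative to the scale on which libraries are compared, since the abundant muscle transcripts changed. The 100 most abundant genes of each library took 53.0% to 54.0% of counts in WT at P35 and 41.5% to 44.7% in KO, and the mitochondrially encoded genes 15.6% and 10.4% on average. Scaled by library totals instead of TMM, the median gene was 0.44 higher in KO on the log2 scale and *Mtmr10* alone was called (log2 -0.44, adjusted P=0.00209). The other 5 called members then stood between -0.11 (*Mtmr3*) and 0.08 (*Mtmr1*) and *Mtmr4*, *Mtmr12* and *Mtmr9* at 0.20, 0.19 and 0.16, none called. All 10 members lay below the median gene under each of the 4 scalings plotted. A change of scaling moves a member and the median gene by about the same amount. This position could therefore hardly differ between scalings, and it is not a separate result for each. The TPM values follow the totals, being scaled to the same sum in every library. The summed TPM of the 7 active members at P35 was 100.1±7.97 for WT and 113±6.01 for KO, with overlapping ranges of 92.1 to 109 and 106 to 120.5. At P21 it was 103±1.81 and 119±7.99, with ranges of 101 to 105 and 113 to 131 that did not overlap. At P1, where the median gene moved by 0.04 under library totals, it was 169±4.85 for WT and 184±9.82 for KO. Those ranges, 162 to 173 and 174 to 195, did not overlap either. With longest transcripts the P1 ranges nearly touched, at 159.6 to 169.5 for WT and 169.7 to 190.0 for KO. How often sums of other genes separate in this way was not tested. At P14 the summed TPM of the 7 active members was 106±7.27 and 106±6.65.

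**Figure D4:**
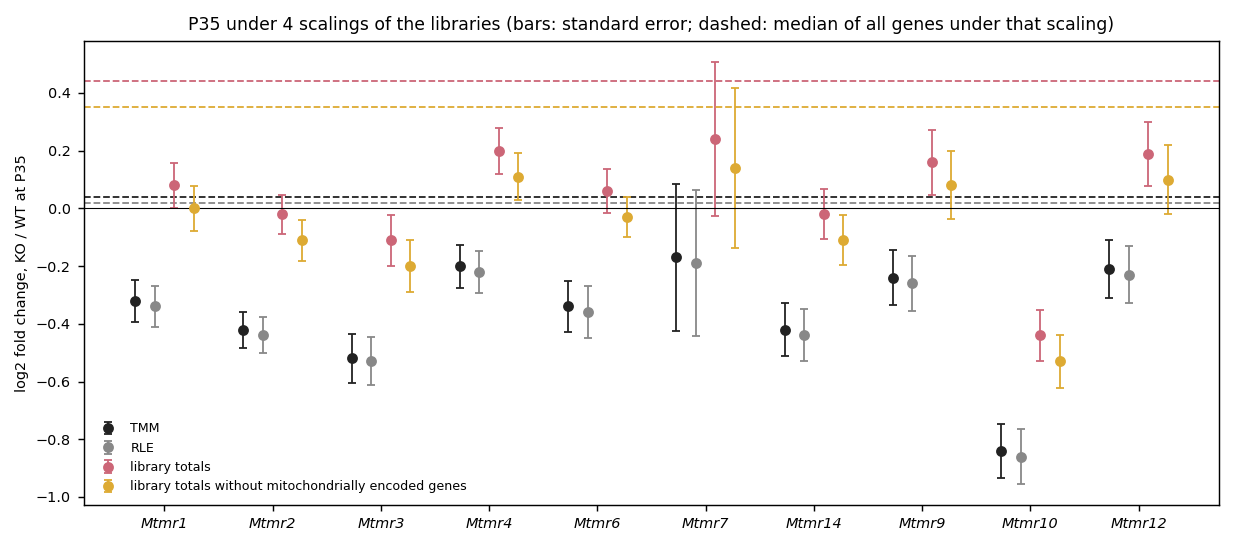
Points are the log2 fold changes of KO over WT at P35 under 4 scalings of the libraries, with standard errors, and each dashed line is the median of all genes under the scaling of the same colour. Under library totals (red) the points move up by about as much as the median gene, and *Mtmr10*, at -0.44, stays below 0.

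Some cell type markers differed between the groups at the same ages. Of all genes, 41.4% were called at P35 (20.1% lower in KO) and 21.0% at P21 (9.57% lower in KO). In bulk muscle, fewer cells of a type and less RNA per cell cannot be told apart. At P35, 3 of 6 muscle fibre markers were lower in KO and 0 higher (summed 91403 to 150062 CPM in WT, 61050 to 89857 in KO), 5 of 6 endothelial markers were lower (359 to 632 and 309 to 372 CPM), and 3 of 6 satellite cell markers were lower (34.2 to 36.0 and 28.7 to 32.3 CPM). In the other direction, 5 of 6 macrophage markers were higher and 1 lower (summed 90.1 to 109 CPM in WT, 115 to 177 in KO), 5 of 6 adipocyte markers were higher (235 to 366 and 398 to 581 CPM), and 2 of 6 Schwann cell markers were higher (95.8 to 598 and 318 to 1277 CPM). Of 6 fibroblast markers 1 was higher, and of the 3 keratinocyte markers tested 1 was higher. This was *Trp63*, from 4.44 to 21.5 CPM, while *Krt10* was at 4.41 and 4.33 CPM and *Dsp* under 1 CPM. At P21, 5 of 6 macrophage markers, 1 fibroblast and 1 keratinocyte marker were higher, and 1 muscle fibre, 3 endothelial and 4 satellite cell markers were lower. At P35 the counts of fibroblast, keratinocyte and Schwann cell markers were not above the share of all genes called in either direction. The same held for the muscle fibre and fibroblast counts at P21. No marker of any of the 8 lists was at 0 in all libraries of a P35 group. The part of these shifts in the members' differences was not tested.

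Whether the KO effect differed between successive ages was tested as an interaction in 1 fit of all 32 libraries. From P1 to P14, 0 members were called, beside 0.0269% of the 18583 genes tested, and 2 had an unadjusted P-value under 0.05 (*Mtmr14* and *Mtmr6*), beside 1200 genes. From P14 to P21, 0 were called, beside 1.42%, and 2 had an unadjusted P-value under 0.05 (*Mtmr10* and *Mtmr2*), beside 2398 genes; DESeq2 called 0 at both steps. From P21 to P35 all 10 estimates were negative, and 7 members had an unadjusted P-value under 0.05, beside 3241 genes. The common sign depends on the scaling: under library totals, where the median gene moved by 0.23, 4 estimates were positive and 6 negative. With TMM 1 member was called, beside 1.51% called in the negative direction. This was *Mtmr3*, whose KO difference went from -0.15 (s.e. 0.0713, not called) to -0.52 within each age, a change of -0.38 in the joint fit (s.e. 0.102, adjusted P=0.0425). Fitted with only the 16 libraries of both ages it was not called (adjusted P=0.0964), nor on leaving out any of 10 of the 16 libraries (0.0527 to 0.115). The changes of *Mtmr14* (-0.49, s.e. 0.140, adjusted P=0.0630) and *Mtmr10* (-0.45, s.e. 0.136, adjusted P=0.0706) were larger in size and did not pass. These steps share their libraries with the comparisons within each age.

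Of the family genes outside the 10, *Mtmr11*, an inactive member, was the only one called higher. It held 2.87, 4.75, 4.30 and 5.23 CPM in WT at P35 and 6.51, 9.45, 6.83 and 8.21 in KO, a 1.84-fold difference (log2 0.88, s.e. 0.194, adjusted P=0.00603), and at P21 1.78-fold (adjusted P=0.0237, ranges overlapping). *Mtmr11* overlaps an antisense gene of up to 4.02 CPM. *Sbf1*, an inactive partner of *Mtmr2*, was 0.719-fold at P35 (log2 -0.48, s.e. 0.0844, adjusted P=0.00196), and *Sbf2*, the other one, was 0.775-fold and not called (adjusted P=0.127).

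The genes around the family were read from lists of enzymes that make or remove PI3P and related lipids, of proteins that bind PI3P, and of proteins that bind MTM1 or act with it in muscle. No gene of these lists was called at P1 or P14. Of 19 turnover enzymes, 1 was higher and 1 lower at P21 and 3 were higher and 3 lower at P35, beside 21.0% and 41.4% of all genes called in either direction, with a list median of -0.02 against 0.04 for all genes at P35. Neither count was above those shares. The smallest P-values at both ages belonged to *Pik3c2a*, a class II kinase that makes 3-phosphorylated lipids, and *Vac14*, the scaffold of the PI3P 5-kinase complex. At P35 *Pik3c2a* went from 21.6 to 12.8 CPM (log2 -0.72, s.e. 0.114, adjusted P=0.00112) and *Vac14* from 23.7 to 34.3 CPM (log2 0.56, s.e. 0.0998, adjusted P=0.00206). Also lower was *Sacm1l* (-0.34, adjusted P=0.00485), a phosphatase of phosphatidylinositol 4-phosphate, and also higher were the kinases *Pip4k2c* (0.29, adjusted P=0.0116) and *Pip4k2a* (0.36, adjusted P=0.0373). *Pik3c3*, the class III kinase that makes most PI3P, was at -0.07 (s.e. 0.0656, adjusted P=0.401).

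Of 11 PI3P-binding proteins, 1 was higher at P21, and at P35 1 was higher and 2 were lower, again not above the 21.0% and 41.4% of all genes called, with a median of -0.05. *Hgs*, an endosomal sorting protein, was higher at both ages (log2 0.55, adjusted P=0.0162 at P21; 0.88, adjusted P=4.92e-04 at P35). *Zfyve26*, the spastizin gene, was lower at P35 (-0.66, adjusted P=8.74e-04), as was *Rbsn* (-0.26, adjusted P=0.0175), an early endosome protein. The next smallest P-value at P21 was that of *Zfyve1*, at 0.25 (adjusted P=0.0648). Of the 5 MTM1 partners, *Des* (desmin) and *Bin1* (amphiphysin 2, which shapes the T-tubule membrane) were higher at both ages. *Des* was at 0.81 at P21 and 0.78 at P35 (adjusted P=0.00109 and 0.00117), and *Bin1* at 0.54 and 0.74 (adjusted P=0.0134 and 0.00598). At P35 *Speg*, a kinase of the muscle triad, was lower, at -0.59 (adjusted P=0.00631). The list medians were 0.15 at both ages.

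The genes whose log2 CPM ran most like each called member over the 32 libraries are given as a description, since age and genotype are shared by all genes of a library. *Mtmr1* ran closest to *Ppp6r2* (r=0.988), *Kpna1* (0.984) and *Bcl2l13* (0.982), and *Mtmr6* ran close to *Asb13* (0.977) and *Eps15* (0.975). For *Mtmr10* they were *P2ry1* (0.963), *Arfgef1* (0.958) and *Sbno1* (0.955). The values were lower for *Mtmr14* (*Serinc3*, 0.913; *Hbp1*, 0.906; *Ankrd9*, 0.893), *Mtmr3* (*9930021J03Rik*, 0.894; *Sbf1*, 0.885; *Dnajc13*, 0.884) and *Mtmr2* (*Poc1a*, 0.889; *Pip5k1c*, 0.877; *Trpm7*, 0.868). *Sbf1*, near *Mtmr3*, is the one family gene among those named.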

How the data were processed

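The authors deposited 1 table of expected counts per gene for 32 libraries, not scaled between libraries. The submitters' processing notes name STAR 2.6.1, RSEM 1.2.22, DESeq2 and GRCm38. Per the labels, libraries were strand-specific and made from poly(A) RNA, and the methods name HTSeq as counter. The counting strand and annotation are not given in the sources used here. Gene names, positions, lengths and coding sequences came from GENCODE M21 (GRCm38), in which 54809 of 54838 gene IDs were found. Groups and replicate numbers came from the sample labels. The members and gene lists were chosen with earlier results of these data known.

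Counts were rounded and tested in R 4.3.3 with edgeR 4.0.16 (filterByExpr, TMM, glmQLFit, glmQLFTest, two-sided) within each pair of groups, or in 1 fit of 32 libraries for interactions, and adjusted by Benjamini-Hochberg over all genes tested. A call is an adjusted P-value under 0.05. The script was tested on simulated counts with known changes in equally many genes up and down. These counts held no shift of the abundant transcripts between genotypes, so they do not test the choice of scaling. CPM values are on a TMM scale of all 32 libraries. Coding sequences were translated and aligned with mafft 7.526. Tables and figures used python 3.11.15. The genes named are the members, other family genes, the 2 smallest P-values per list at P21 and P35 and the 3 most correlated genes; *Pik3c3*, *Speg*, *Rbsn*, *Sacm1l*, *Pip4k2a* and *Pip4k2c* were added after their values were seen. Protein sequences were not used here, and some genes that the rule names are not reported here. P-values weigh a difference against the spread between libraries of the same group, as each fit estimates it.

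Same-numbered libraries were taken as paired where every pair's deviations from the group means correlated over 0.1. This held for KO and WT at P14 (r from 0.19 to 0.59, mean 0.33) and in none of the other comparisons (mean r from -0.14 to 0.09). The pairing comes from these correlations, not from a label. No 2 replicates agreed within counting noise (chi-square per degree of freedom at least 10.5 over 48 pairs). Alternatives were DESeq2 1.42.0, other scalings, filters, fits and leaving out each library.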

Additional observations from a re-analysis of the deposited data

Results flagged for a closer look

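Over 80 tests of a member in a group of 4 libraries, 2 had a highest library far from the other 3, where chance gives about 1 in 20. *Mtmr7* in KO P1 replicate 4 was at 1.61 CPM with the others at 0.913 to 1.02, and *Mtmr9* in KO P21 replicate 1 was at 16.3 CPM with the others at 13.8 to 14.1. The KO effect on *Mtmr3* differed between P21 and P35 by -0.38 (adjusted P=0.0425, edgeR interaction test), with an adjusted P-value between 0.0214 and 0.115 when any 1 library was left out.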

How the results depend on the processing

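The number of members called moved by over 1.5 times as follows. At P1 it went from 0 to 1 with DESeq2. At P14 it went from 0 to 1 with the replicate block. At P21 it went from 2 to 1 with library totals (*Mtmr6*, 0.15, the reverse of its -0.04) and with no filter, to 0 with totals without mitochondrially encoded genes, chosen after seeing the data, and to 0 to 2 with 1 library left out. At P35 it went from 6 to 1 with library totals with or without mitochondrially encoded genes, and ran from 6 to 8 with 1 library left out. For the WT steps it went from 4 to 2 with the replicate block for P21 against P14, and ran from 2 to 5 (P21 against P14) and from 1 to 3 (P35 against P21) with 1 library left out. For the change of the KO effect from P21 to P35 it went from 1 to 3 with DESeq2, to 4 with the replicate block, to 0 with library totals with or without mitochondrially encoded genes, with no filter and with only the 16 libraries, and to 0 to 2 with 1 library left out. The stricter limits left 0 at P21, 1 at P35, 2, 1 and 0 for the WT steps and 0 for the change from P21 to P35. The replicate block changed no other count by as much, and apart from P14 the numbers only name the libraries.

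The other reversals of values called with TMM or under the alternative were under library totals: at P35 *Mtmr1* to 0.08 and *Mtmr6* to 0.06, and from P1 to P14 in WT *Mtmr1* to -0.01, *Mtmr6* to -0.03, *Mtmr4* to -0.76, *Mtmr14* to -0.24 and *Mtmr10* to -0.38, and without mitochondrially encoded genes *Mtmr4* to -0.69, *Mtmr14* to -0.16 and *Mtmr10* to -0.31. Counting members not called, signs changed in up to 7 of 10 members with library totals with or without mitochondrially encoded genes (at P14) and in up to 3 under any other setting. From P1 to P14 in WT the median of all genes moved by -0.85, against -0.08 with TMM. With longest transcripts, the *Mtm1* share was 2.79%, 7.91%, 6.90% and 6.48% in WT and 1.33%, 1.78%, 1.17% and 1.51% in KO. Of 1190 recomputed log2 fold changes of members, 1065 kept their call or, if not called, stayed within 1 standard error, 43 lost the call, 23 gained one, 48 not called moved by over 1 standard error and 11 reversed. Apart from the shift of the median under library totals, the cause of these changes was not tested. Depth limits *Mtmr7*, with as few as 29.0 counts in a library.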
